A study of Mus musculus with 6 samples.

Results

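Genomic imprinting leaves 1 parental copy of a gene active, and many imprinted genes set growth before birth and the size of fat depots later. The imprint is carried as DNA methylation on CG dinucleotides near the promoters or control regions of clustered genes. Paternally expressed genes such as *Mest*, *Peg3*, *Igf2* and *Dlk1* and maternally expressed genes such as *H19*, *Meg3*, *Cdkn1c* and *Grb10* often act in opposite directions on growth. *Mest* and *Peg3* are known to mark adipose tissue that expands on rich diets.
A set of 10 imprinted growth genes was followed in iWAT (inguinal white adipose tissue): *Mest*, *Peg3*, *Igf2*, *H19*, *Dlk1*, *Meg3*, *Nnat*, *Cdkn1c*, *Plagl1* and *Grb10*. Members were found by gene symbol in a table of 19509 symbols on 37024 rows, and the row with the highest total stood for a symbol. Of the 10 genes, 7 had at least 1 row, and no row of *Mest*, *H19* or *Nnat* was analysed here. The 7 genes held 24 rows, of which 16 were at 0 in every library. After edgeR's filter on low counts, 4 of the 7 genes could be tested (*Plagl1*, *Meg3*, *Grb10* and *Igf2*), and *Cdkn1c*, *Peg3* and *Dlk1* could not.

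Bulk RNA-seq covered iWAT after 12 weeks on a Western diet, in 3 *Lexis*-AdWT and 3 *Lexis*-AdKO libraries. *Lexis* is a long noncoding RNA. All mice were on a C57BL/6 background and carried the floxed *Lexis* allele (*Lexis* fl/fl). AdWT littermates had no Cre, and AdKO mice carried Adipoq-cre, which acts in adipocytes. Whether other cells of the depot hold *Lexis* RNA was not tested. The study calls the libraries of a group biological replicates. It states an age range for most of its mice, but the age and sex of the mice in these libraries, and whether each library is 1 mouse, are not given in the sources used here.
Total counts were between 14470542 and 17882713 per library, and a count of 0 allows up to 3 counts, or 0.179 to 0.206 CPM (counts scaled by TMM library size), for counting error only. Of the 16 *Lexis* RNA FISH probes of the study, 9 matched chromosome 4 of NCBIM37 (mm9) exactly, all within *4930412L05Rik* on the minus strand (53217938 to 53230729). The count of that gene was 8, 9 and 8 in AdWT and 21, 11 and 13 in AdKO, so every AdKO count lay above every AdWT count before scaling. By scaled counts, all AdKO libraries lie above all AdWT libraries in 6.16% of all rows tested. The row shows no loss of *Lexis* in the libraries labelled AdKO. As the study draws the allele, no exon is removed: Cre turns a cassette with a splice acceptor and polyadenylation signals, set behind the first exon, into the sense direction. Where in the gene the counted reads lie was not tested. AdWT and AdKO stand below for the libraries so labelled, and every direction rests on the labels. The white adipocyte markers measured (7 of 12 with a row, 1 of them at 0) summed to between 46145 and 54595 CPM in AdWT and between 41328 and 42011 CPM in AdKO, as iWAT should show. Skeletal muscle markers summed to 50.1, 206.7 and 27.8 CPM in AdWT against 23.2 to 26.6 CPM in AdKO, and 6 of the 7 tested (*Ckm*, *Mylpf*, *Atp2a1*, *Tnnc2*, *Myh1* and *Tcap*) had an unadjusted *p* under 0.05, all lower in AdKO (85.7%, against 2.98% of all rows), and 0 an adjusted *p* under 0.05 by edgeR. The other marker tested, *Casq1*, went the other way, with a log2 fold change of 0.49. It had 12.9, 18.4 and 9.15 CPM in AdWT and 17.9, 21.8 and 17.3 CPM in AdKO, most of the AdKO sums. Epithelial markers were highest in AdKO replicate 3, at 47.9 CPM, and in AdWT replicate 3, at 20.2 CPM, with at most 1.44 CPM elsewhere.

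Promoters of 8 of the 10 genes were matched in RefSeq (build GRCm38.p6, 250 bases before to 50 bases after a start site), with 15 start sites in all. The CG dinucleotides on which an imprint can be written were counted in each window. Over 32851 mouse promoters of this length the median was 7, and 13 of the 15 windows held 7 or more. The windows of the 3 most counted genes and of *Peg3* are shown because they span the highest and the lowest counted levels in iWAT, with each CG in capitals.
Plagl1: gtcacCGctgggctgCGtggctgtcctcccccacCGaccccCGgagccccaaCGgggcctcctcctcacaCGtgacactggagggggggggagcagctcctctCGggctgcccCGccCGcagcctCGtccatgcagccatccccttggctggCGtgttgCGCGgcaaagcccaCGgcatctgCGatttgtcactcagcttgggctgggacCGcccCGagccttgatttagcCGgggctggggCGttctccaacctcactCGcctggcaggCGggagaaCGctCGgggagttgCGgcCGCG
Meg3: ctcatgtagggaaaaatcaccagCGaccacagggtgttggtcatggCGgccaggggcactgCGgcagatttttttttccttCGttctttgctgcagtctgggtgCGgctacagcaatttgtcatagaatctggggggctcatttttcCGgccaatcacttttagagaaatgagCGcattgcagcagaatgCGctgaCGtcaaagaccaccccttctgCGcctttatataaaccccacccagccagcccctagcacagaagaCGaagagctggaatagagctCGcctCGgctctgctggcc
Grb10: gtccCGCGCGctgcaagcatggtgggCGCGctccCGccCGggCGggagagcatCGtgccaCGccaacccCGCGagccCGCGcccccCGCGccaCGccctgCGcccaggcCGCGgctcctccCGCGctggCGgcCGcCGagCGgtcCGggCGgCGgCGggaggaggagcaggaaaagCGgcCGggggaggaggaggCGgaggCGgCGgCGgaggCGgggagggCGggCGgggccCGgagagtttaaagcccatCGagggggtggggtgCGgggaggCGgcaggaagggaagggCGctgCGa
Peg3: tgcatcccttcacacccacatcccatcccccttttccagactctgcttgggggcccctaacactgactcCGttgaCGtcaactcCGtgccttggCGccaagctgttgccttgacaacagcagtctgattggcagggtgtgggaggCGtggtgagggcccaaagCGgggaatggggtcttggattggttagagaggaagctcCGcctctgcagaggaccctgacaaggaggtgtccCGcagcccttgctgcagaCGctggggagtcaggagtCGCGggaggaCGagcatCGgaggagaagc
The *Plagl1* window (chr10:13090582-13090881, plus strand) held 26 CG, a number that 16.9% of all promoters reach. The first *Meg3* window (chr12:109540746-109541045, plus strand) and the *Peg3* window (chr7:6730370-6730669, minus strand) held 13 each, which 37.9% reach. The other start site of *Meg3* held 1, the lowest of the 15 windows, which 94.6% reach. The first *Grb10* window (chr11:12037371-12037670, minus strand) held 45, which 1.93% reach, and its other start site held 9. For *Dlk1* the number was 9 and for *Nnat* 17, while the 4 start sites of *Igf2* ran from 2 to 24. These counts describe sequence, and no methylation was measured in these libraries.

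Of the 7 imprinted growth genes with a row, *Plagl1* had the highest counted level in iWAT. Per kilobase of annotated exon its level was 4.98 CPM, followed by *Grb10* with 0.311, *Meg3* with 0.300, *Igf2* with 0.163, *Cdkn1c* with 0.0673 and *Peg3* with 0.00494 CPM per kilobase. *Dlk1* was listed at 0. The lengths are the merged exons of GENCODE vM1, since the transcript behind a row is not given, so the scale is approximate. How reads shared by the rows of a symbol were counted is not given either, and its part in this order was not tested.
Over the 6 libraries *Plagl1* ran from 4.35 to 6.26 CPM per kilobase, above every other gene in every library. *Grb10* (0.225 to 0.417), *Meg3* (0.186 to 0.404) and *Igf2* (0.0869 to 0.212 CPM per kilobase) overlapped with their neighbours in the order, and the range of *Igf2* overlapped with that of *Cdkn1c* (0 to 0.178 CPM per kilobase), although *Igf2* was the higher of the pair in each library. The order of *Meg3* and *Grb10* rests on the row taken: with all rows of a symbol summed, *Meg3* was at 0.451 (0.342 to 0.632) and *Grb10* at 0.316 CPM per kilobase.

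**Figure D1:**
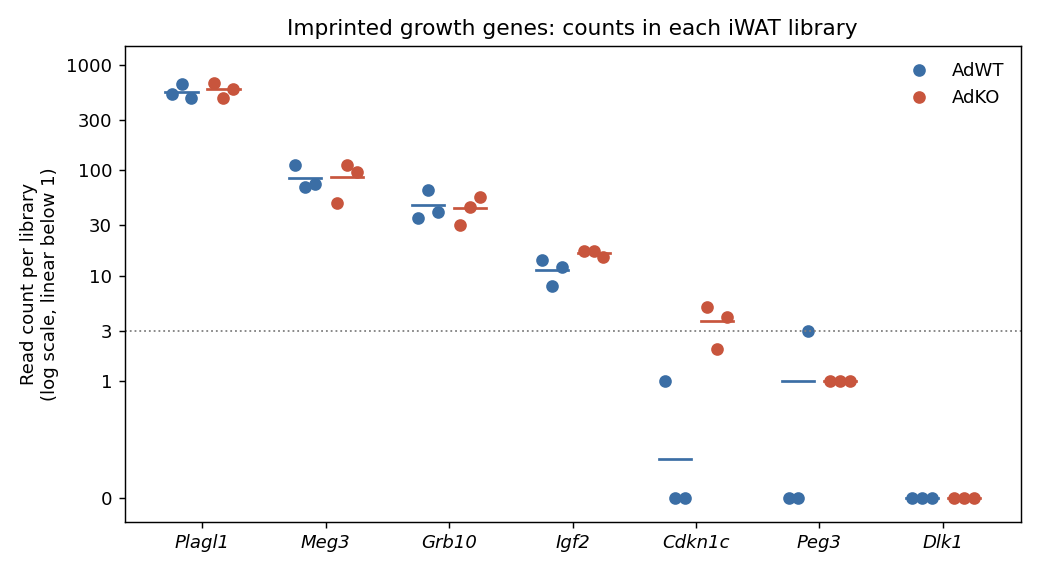
Read counts of the 7 genes with a row, on a log axis that is linear below 1, with a point per library, AdWT in blue and AdKO in red, a short line at each group's mean and a dotted line at 3 counts. *Plagl1* lies at 478 to 665 counts in every library, the points of the 2 groups intermingle for *Meg3* and *Grb10*, and *Peg3* and *Dlk1* lie at or under 3.

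None of the 4 members tested differed between AdKO and AdWT beyond the spread between replicates. Of the 4 genes tested, 3 were higher and 1 lower in AdKO by the fitted value, and the median log2 fold change was 0.06, against 5105 higher, 4767 lower and a median of 0.007 over all 9872 rows tested. By edgeR's quasi-likelihood test, 0 of the 4 had a Benjamini-Hochberg adjusted *p* under 0.05, where the background over all rows was 0%. At an unadjusted *p* under 0.05 the number was again 0 of 4, where the background was 5.73%, of which 2.76% were higher and 2.98% lower in AdKO (566 rows). With library size only in place of TMM scaling, 313 of 475 such rows were higher in AdKO (65.9%, against 48.1% with TMM). DESeq2 called 27 rows over the whole table and 0 of the 4 members.

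*Plagl1* (ENSMUSG00000019817.11) encodes a zinc finger transcription factor that arrests the cell cycle and acts on other imprinted genes. Its locus in NCBIM37 (mm9), the build of all gene positions given here, is 12810497 to 12851500 of chromosome 10, plus strand. Its counts were 521, 650 and 478 in AdWT and 665, 482 and 592 in AdKO, all from 1 of its 4 rows, since the others were at 0. That is 34.0, 38.8 and 31.9 CPM against 45.6, 31.7 and 35.5 CPM. AdKO replicate 1 had the highest level and AdKO replicate 2 the lowest, so the AdWT libraries lay inside the range of the AdKO libraries.
The mean was 34.9 ± 3.52 CPM (SD, n = 3) in AdWT and 37.6 ± 7.21 CPM (SD, n = 3) in AdKO. With SE for standard error, the fitted log2 fold change was 0.11 (SE 0.149, 95% interval -0.24 to 0.46, adjusted *p* = 0.904 by edgeR). Without AdKO replicate 1 it was -0.06, so the sign rests on that library.

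*Grb10* (ENSMUSG00000020176.10) encodes an adaptor protein that binds the insulin and IGF1 receptors and dampens their signal. It lies on chromosome 11 from 11830511 to 11938686 on the minus strand. Its main row had 35, 64 and 40 counts in AdWT and 30, 45 and 55 in AdKO, or 2.29, 3.82 and 2.67 CPM against 2.06, 2.96 and 3.30 CPM. AdWT replicate 2 had the highest level and AdKO replicate 1 the lowest, and the groups overlapped.
The mean was 2.93 ± 0.798 CPM in AdWT and 2.77 ± 0.641 CPM in AdKO (SD, n = 3 each). The log2 fold change was -0.08 (SE 0.274, 95% interval -0.72 to 0.56, adjusted *p* = 0.970 by edgeR). Its sign turned without AdWT replicate 2 (0.16), the library with the most skeletal muscle RNA, and without AdKO replicate 1 (0.094), which had little. The part of that RNA in the value was not tested.
The 3 other rows of *Grb10* held 4 counts in all.

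*Meg3* (ENSMUSG00000021268.10) is a long noncoding RNA made from the maternal copy of the *Dlk1*-*Meg3* domain. It lies on chromosome 12 from 110779211 to 110809936 on the plus strand. It has 5 rows, 2 of them with counts. The main row had 111, 69 and 73 counts in AdWT and 49, 111 and 95 in AdKO, or 7.25, 4.12 and 4.88 CPM against 3.36, 7.30 and 5.70 CPM.
AdKO held both the lowest library, replicate 1, and the highest, replicate 2, with AdWT replicate 1 almost level with the latter. The mean was 5.42 ± 1.63 CPM in AdWT and 5.45 ± 1.98 CPM in AdKO (SD, n = 3 each). The log2 fold change was 0.01 (SE 0.327, 95% interval -0.75 to 0.78, adjusted *p* = 0.996 by edgeR). Its sign turned in 6 of 15 other settings.
The other counted row had 64, 39 and 37 counts in AdWT and 41, 36 and 37 in AdKO. Here AdWT replicate 1 stood above the other 5 libraries, which lay between 36 and 41. Its log2 fold change was -0.28 (SE 0.275, 95% interval -0.92 to 0.36, adjusted *p* = 0.885 by edgeR), and 0.04 without AdWT replicate 1. With the rows of each symbol summed, *Meg3* had a log2 fold change of -0.08. The row chosen thus changed the sign and not the call.

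*Igf2* (ENSMUSG00000048583.9) encodes a growth factor that drives fetal growth and signals through the IGF1 and insulin receptors. It lies on chromosome 7 from 149836673 to 149852721 on the minus strand and has a row of its own. Its counts were 14, 8 and 12 in AdWT and 17, 17 and 15 in AdKO. Scaled, these were 0.915, 0.478 and 0.802 CPM against 1.17, 1.12 and 0.900 CPM.
The raw counts of AdKO all lay above those of AdWT, while after scaling AdWT replicate 1 passed AdKO replicate 3, so the groups overlapped. The mean was 0.731 ± 0.227 CPM in AdWT and 1.06 ± 0.142 CPM in AdKO (SD, n = 3 each). The log2 fold change was 0.54 (SE 0.332, 95% interval -0.24 to 1.31, adjusted *p* = 0.853 by edgeR). An exact permutation test, two-sided and on log2(CPM + 0.5), gave *p* = 0.2, where 3 against 3 cannot go below 0.1.
The direction was the same in all 14 other settings that tested it, with log2 fold changes between 0.30 (without AdWT replicate 2) and 0.73 (without AdWT replicate 1). With at least 10 counts required in every library it was not tested, since AdWT replicate 2 had 8. *Igf2os*, the antisense RNA that overlaps it, had 4, 2 and 2 counts in AdWT and 8, 3 and 4 in AdKO. The libraries were made with a stranded kit, but whether the counting used strand is not given in the sources used here, so reads of the pair cannot be told apart.

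**Figure D2:**
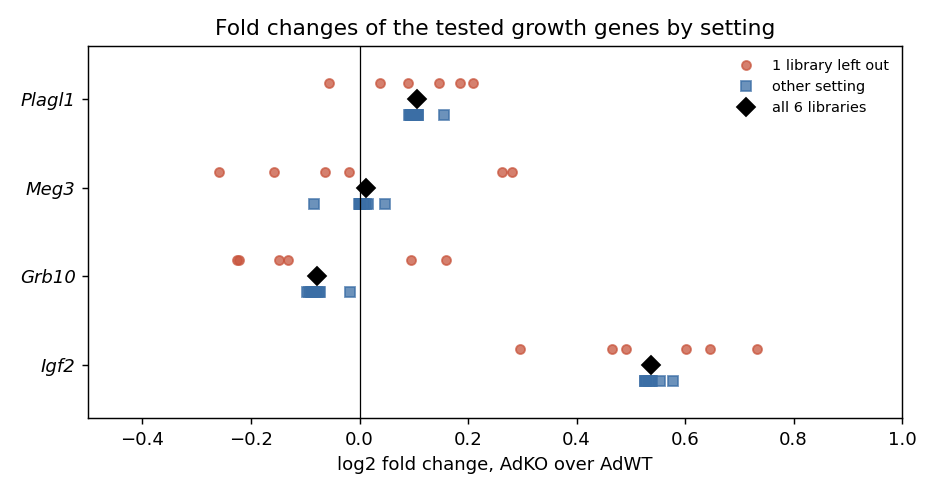
Log2 fold change (AdKO over AdWT) of the 4 tested genes on the x axis, with the value from all 6 libraries (diamond), with 1 library left out (circles) and under the other settings (squares). *Igf2* stays above 0 throughout, from 0.30 to 0.73, while *Plagl1*, *Meg3* and *Grb10* have values on both sides of 0.

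*Cdkn1c* (ENSMUSG00000037664.6) encodes the cell cycle inhibitor p57 and lies on chromosome 7 from 150644255 to 150646955 on the minus strand. Its counted row had 1, 0 and 0 counts in AdWT and 5, 2 and 4 in AdKO, and its other 2 rows were at 0. All 3 AdKO libraries lay above all 3 AdWT libraries, as in 6.43% of the 3126 rows with 6 to 20 counts in total. The sums, 1 against 11, gave a ratio of 11.1 with an exact 95% interval of 1.62 to 479.4, which covers counting error and not the spread between mice.
The gene did not pass edgeR's filter. With only at least 1 count in any library required, its log2 fold change was 3.06 (SE 1.17) with an unadjusted *p* of 0.0215 and an adjusted *p* of 0.840 by edgeR, and DESeq2 gave an unadjusted *p* of 0.0579. The exact permutation test of log2(CPM + 0.5) gave *p* = 0.1, the smallest possible. Most of these counts are at or near the limit that 0 allows.

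*Peg3* (ENSMUSG00000002265.8), a zinc finger gene expressed from the paternal copy, lies on chromosome 7 from 6656603 to 6683132 on the minus strand. Its counts were 0, 0 and 3 in AdWT and 1, 1 and 1 in AdKO, and its other row was at 0. The sums were 3 and 3, a ratio of 1.01 with an exact 95% interval of 0.136 to 7.56. So few counts give a wide interval, and they do not tell whether *Peg3* differed.
*Dlk1* (ENSMUSG00000040856.11), which encodes the preadipocyte factor Pref-1, lies on chromosome 12 from 110691033 to 110701546 on the plus strand. All of its 5 rows were at 0 in all 6 libraries. Over the whole table, all rows were at 0 for 31.8% of the 10815 symbols with 1 row, for 20.1% of the 8694 with 2 or more and for 16.2% of the 554 with 5 rows. Among the listed genes the split ran the other way, since 3 of the 70 symbols with 1 row were at 0 in every library and 14 of the 72 with 2 or more rows.
Among these were *Gnas* (2 rows), the G protein subunit that most cells use, *Insr* (3 rows), the insulin receptor, and *Pnpla2* (4 rows), the main triglyceride lipase of fat. A 0 in this table is thus listed also for genes that fat is known to use. How reads shared by the rows of a symbol were counted is not given in the sources used here, and its part in the low counts of *Dlk1*, *Peg3* and *Cdkn1c* was not tested.

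Other imprinted genes were looked at from a list of 46 symbols. Of these, 37 had a row and 19 could be tested, 9 higher and 10 lower in AdKO by the fitted value, and their median log2 fold change was -0.03. At an unadjusted *p* under 0.05 there were 0, against 5.73% of all rows. The fitted values ran from -0.41 to 0.44.
The most abundant were *Cd81*, a tetraspanin, at 1166 ± 39.7 CPM in AdWT and 1181 ± 27.1 CPM in AdKO, and *Slc22a3*, an organic cation transporter, at 371.8 ± 32.1 and 380.8 ± 39.2 CPM (SD, n = 3 each). *Igf2r*, the receptor that clears IGF2 from the cell surface, measured 376.4, 336.5 and 303.1 CPM in AdWT and 368.8, 336.1 and 356.6 CPM in AdKO. Its log2 fold change was 0.06 (SE 0.0927, 95% interval -0.15 to 0.28). *Ndn*, a paternally expressed gene that restrains adipocyte differentiation, had a log2 fold change of 0.02 (SE 0.0976).
For these 4 abundant genes the intervals lay within 0.3 of 0 on the log2 scale, narrower than for the members.

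**Figure D3:**
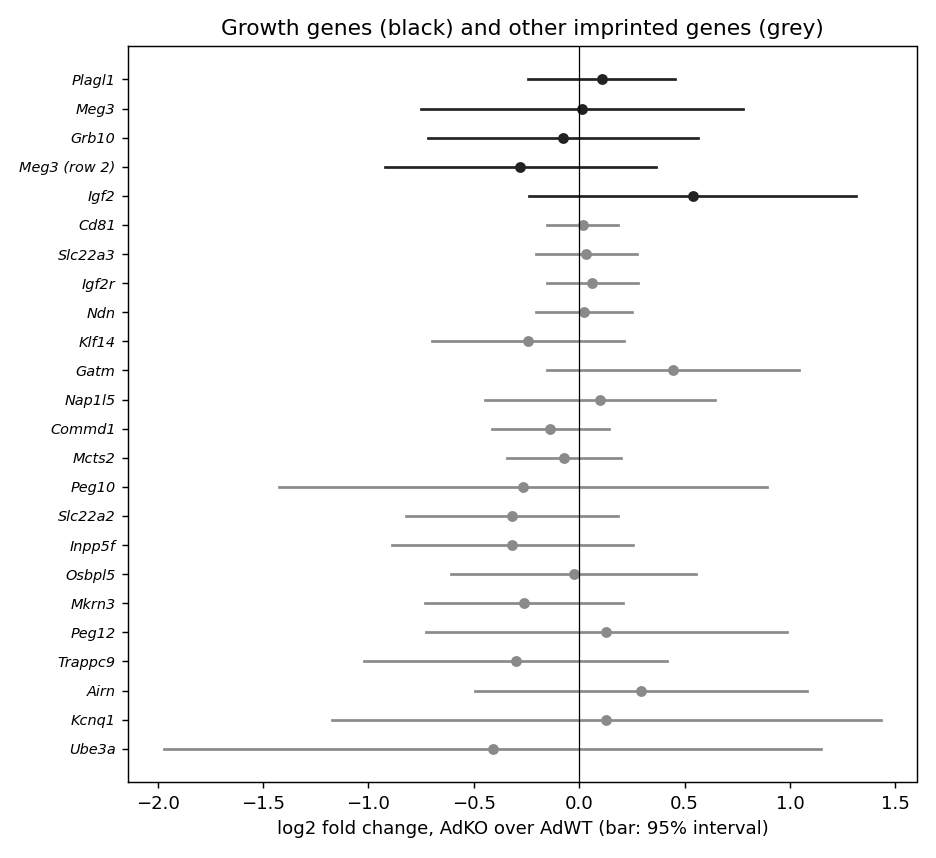
Log2 fold change (AdKO over AdWT) with its 95% interval for the tested rows of the growth genes (black) and the 19 other imprinted genes tested (grey), each ordered by mean CPM. Every interval includes 0, and the widest belong to *Ube3a*, *Kcnq1* and *Peg10*.

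Genes that neighbour the members gave 8 tested of 20 with a row (29 symbols), 4 higher and 4 lower in AdKO by the fitted value, at a median log2 fold change of 0.05. The *Meg3* domain held few counts apart from *Meg3*. The noncoding RNAs *Rian* and *Mirg* had at most 2 counts in a library on their main rows, and *Dio3* between 1 and 6. Next to *Cdkn1c*, *Nap1l4*, a histone chaperone gene, was the only neighbour with an unadjusted *p* under 0.05 (1 of 8, 12.5%, where the background was 5.73%). It had 2.94, 2.75 and 3.34 CPM in AdWT and 2.33, 2.04 and 2.04 CPM in AdKO. The AdKO libraries all lay below the AdWT libraries, as in 5.72% of rows tested, with a log2 fold change of -0.49 (SE 0.188, adjusted *p* = 0.851 by edgeR). Its unadjusted *p* stayed under 0.05 in 7 of 15 other settings. *Klf14*, a transcription factor gene of the *Mest* region, had a log2 fold change of -0.24 (SE 0.194), between -0.40 (without AdKO replicate 1) and -0.055 (without AdWT replicate 2) with 1 library left out. That of *Ltv1*, near *Plagl1*, was -0.10 (SE 0.0682).

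Partners of the growth genes were taken as the IGF and insulin axis and the proteins the members act on. Of 20 genes of the axis, 17 had a row and 9 were tested, 4 higher and 5 lower in AdKO by the fitted value, with a median of -0.06 and 0 at an unadjusted *p* under 0.05. With 1 library left out the median lay between -0.19 (without AdWT replicate 1) and 0.046 (without AdKO replicate 2), and it was also above 0 without AdWT replicate 2 or 3. *Igfbp4* and *Igfbp5*, which encode binding proteins that hold IGFs outside the cell, had the highest CPM of the axis. *Igfbp4* measured 1685 ± 399.4 CPM in AdWT and 1591 ± 133.7 CPM in AdKO, and *Igfbp5* 601.6 ± 101.7 and 560.2 ± 50.6 CPM (SD, n = 3 each). *Igfbp6*, which prefers IGF2, measured 153.7, 169.0 and 159.4 CPM in AdWT and 214.4, 196.9 and 151.7 CPM in AdKO. Replicates 1 and 2 of AdKO stood above all AdWT libraries and replicate 3 below them, with a log2 fold change of 0.22 (SE 0.126, adjusted *p* = 0.853 by edgeR), between 0.12 (without AdKO replicate 1) and 0.36 (without AdKO replicate 3) with 1 library left out. *Igf1* (2 rows) was at 0 in every library.
Of 21 other partners, 17 were tested, 11 higher and 6 lower by the fitted value, at a median log2 fold change of 0.14. Here 2 had an unadjusted *p* under 0.05 (11.8%, background 5.73%) and 0 an adjusted *p* under 0.05. *Cdk4*, a cyclin-dependent kinase, had 97.4, 86.3 and 84.5 CPM in AdWT and 108.7, 104.2 and 100.2 CPM in AdKO, without overlap, where 6.16% of rows tested have AdKO above. Its log2 fold change was 0.22 (SE 0.0790, adjusted *p* = 0.851 by edgeR). *Ccnd2*, a cyclin that binds it, had 670.9, 713.8 and 533.7 CPM in AdWT and 544.5, 503.6 and 518.5 CPM in AdKO, which overlapped, with a log2 fold change of -0.29 (SE 0.114, adjusted *p* = 0.851 by edgeR). *Ccnd1*, another cyclin of this kind, had a fitted value of 0.26 (SE 0.209). *Notch3*, a receptor of the family that DLK1 can bind, had a log2 fold change of 0.03 (SE 0.198).

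Genes known to track fat expansion were followed beside the growth genes, since *Mest* itself could not be measured. Of 12 listed, 8 had a row and 5 were tested, 2 higher and 3 lower in AdKO by the fitted value, at a median log2 fold change of -0.03. An unadjusted *p* under 0.05 was reached by 2 (40%, background 5.73%), both lower in AdKO, and an adjusted *p* under 0.05 by 0.
*Sfrp5*, a secreted Wnt inhibitor of adipocytes that varies with depot size, measured 1204, 1600 and 2188 CPM in AdWT and 1253, 794.6 and 986.6 CPM in AdKO. The groups overlapped, since AdWT replicate 1 lay below AdKO replicate 1. The mean was 1664 ± 495.5 CPM in AdWT and 1011 ± 230.0 CPM in AdKO (SD, n = 3 each). The log2 fold change was -0.72 (SE 0.241, 95% interval -1.28 to -0.15, unadjusted *p* = 0.0193, adjusted *p* = 0.851 by edgeR), and it lay between -0.90 (without AdWT replicate 1) and -0.48 (without AdWT replicate 3).
*Lep*, the adipocyte hormone whose level follows fat mass, measured 8904, 10059 and 11860 CPM in AdWT and 6819, 6746 and 8790 CPM in AdKO. All AdKO libraries lay below all AdWT libraries, as in 5.72% of rows tested. The log2 fold change was -0.46 (SE 0.161, 95% interval -0.84 to -0.09, unadjusted *p* = 0.0221, adjusted *p* = 0.851 by edgeR). The exact permutation test gave *p* = 0.1, the smallest possible.
The collagen VI genes, which form the mesh around adipocytes, had fitted values of the other sign, with log2 fold changes of 0.13 (SE 0.221) for *Col6a1* and 0.16 (SE 0.202) for *Col6a2*. The sign of *Col6a1* turned without AdWT replicate 3 (-0.045) and without AdKO replicate 2 (-0.076). That of *Col6a2* turned without AdKO replicate 2 (-0.065). Of the 6 white adipocyte markers tested, *Lep* was the 1 with an unadjusted *p* under 0.05 (16.7%, background 5.73%), and 0 had an adjusted *p* under 0.05. By the fitted value 5 were below 0 and *Plin1*, the lipid droplet coat protein, was at 0.10, and the median was -0.19. The summed level of the list did not overlap between the groups and was lower in AdKO, but the sum is mostly *Fabp4*, a fatty acid carrier, with 31822 to 34991 CPM in AdWT and 27157 to 29912 CPM in AdKO, then *Lep* and *Adipoq*. All AdKO libraries lie below all AdWT libraries in 5.72% of rows tested. *Fabp4*, which is among them, had an unadjusted *p* of 0.126 by edgeR. *Adipoq*, *Plin1*, *Lipe* and *Pparg* overlapped between the groups. Fewer adipocytes and less RNA per adipocyte cannot be told apart in bulk tissue, and their part in these values was not tested.

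**Figure D4:**
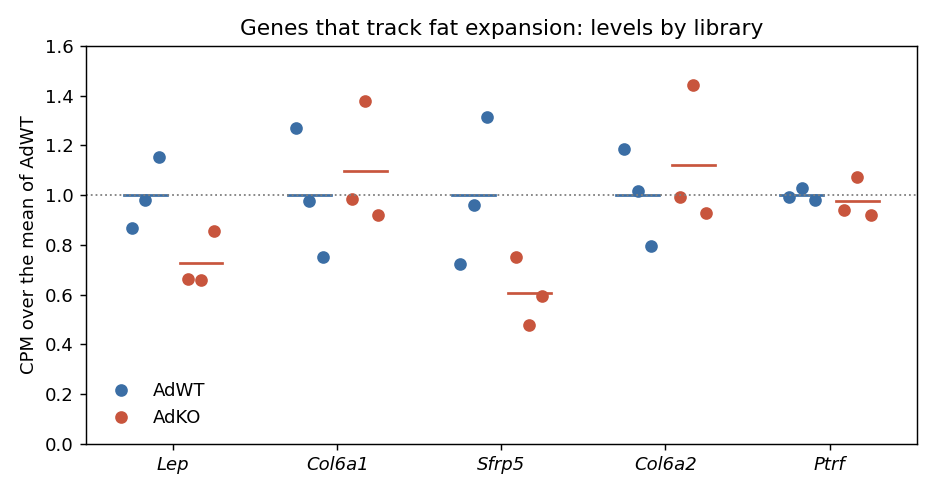
CPM of the 5 tested genes that track fat expansion, divided by the mean of AdWT, with a point per library, AdWT in blue and AdKO in red, and a short line at each group's mean. All 3 AdKO points of *Lep* lie below the AdWT points, those of *Sfrp5* overlap with 1 AdWT library, and the collagen VI genes and *Ptrf* intermingle.

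Progenitor markers, in whose cells *Dlk1*, *Peg3* and *Meg3* are known to be expressed, summed to between 718.0 and 771.2 CPM in AdWT and between 690.2 and 709.1 CPM in AdKO. These sums did not overlap, but most of each was *Zfp423* and *Fbn1*. *Fbn1* had 264.9 to 282.5 CPM in AdWT and 254.7 to 267.7 CPM in AdKO, which overlapped. Of the 7 markers tested, 3 were higher and 4 lower by the fitted value, and the median log2 fold change was -0.02. *Zfp423*, a regulator of the preadipocyte state, was the marker with an unadjusted *p* under 0.05 (1 of 7, 14.3%, background 5.73%). It had 312.7, 329.3 and 314.6 CPM in AdWT and 265.9, 291.3 and 274.9 CPM in AdKO, which lay below AdWT without overlap, as in 5.72% of rows tested, and a log2 fold change of -0.20 (SE 0.0663, adjusted *p* = 0.851 by edgeR). The defining marker *Pdgfra* had 6 to 13 counts per library on the highest of its 5 rows, and *Pdgfrb* at most 1. Endothelial markers summed to between 789.6 and 1157 CPM in AdWT and between 772.2 and 1095 CPM in AdKO, macrophage markers to between 357.8 and 751.1 against 633.5 and 786.4 CPM (3 of 3 tested higher in AdKO by the fitted value, 0 with an unadjusted *p* under 0.05), and lymph node markers to between 7.55 and 22.5 against 9.61 and 16.97 CPM. The endothelial sum was almost all *Cdh5*, at 788.1 to 1154 CPM in AdWT and 769.6 to 1093 CPM in AdKO. Most of the macrophage sum was *Mrc1* and *Lyz2*, and *Emr1* (6 rows) was at 0.
The part of these cell types in the members' values was not tested.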

How the data were processed

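RNA of iWAT was sequenced in 3 *Lexis*-AdWT and 3 *Lexis*-AdKO libraries, grouped by their labels. The authors prepared libraries with the KAPA Stranded RNA-Seq Kit, aligned reads with HISAT2 to mm9 and deposited raw counts per row without normalization, and the submitters' processing notes name DESeq2. The counting tool is not given in the sources used here. Of 37024 rows, 17470 were at 0 in every library. No column belonged to no sample. Counts were compared with R 4.3.3 and edgeR 4.0.16 (filterByExpr by group, TMM, glmQLFit and glmQLFTest, *p* adjusted by Benjamini-Hochberg over 9872 rows, threshold 0.05). SEs were derived from the F statistics, and 95% intervals from the test's degrees of freedom. CPM use the TMM library sizes. Totals were 14470542 to 17882713 per library, with a common biological coefficient of variation of 0.196. P-values measure the spread between these libraries. Permutation tests were exact and two-sided on log2(CPM + 0.5).

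The members and lists were chosen with earlier results of these data known. Genes named are the members, list genes with an unadjusted *p* under 0.05 and up to 4 per list of the highest CPM. *Ccnd1*, *Rian*, *Mirg*, *Dio3*, *Pdgfra*, *Pdgfrb*, *Plin1*, *Pparg*, *Ptrf*, *Ube3a*, *Kcnq1*, *Peg10*, *Igf2os* and the genes listed at 0 are outside this rule and were chosen after their values were seen. The nearest rows to *Mest* and *Peg3* by correlation were not sought, since *Mest* had no row analysed here and *Peg3* held 6 counts. Positions, lengths and probes were matched to NCBIM37 (GENCODE vM1), promoters to RefSeq. Both count models were tested on simulated data first. Alternatives were DESeq2 1.42.0, RLE, upper quartile and library size scaling, other count filters, a robust fit, a replicate block, summed rows and each library left out. Same-numbered libraries did not pair (correlations of their deviations -0.102, -0.116 and 0.352). Libraries of a group all differed by more than sampling noise. Figures used Python 3.11.15 and matplotlib 3.10.9.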

Additional observations from a re-analysis of the deposited data

How the results depend on the processing

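The adjusted *p* of the 4 tested members stayed above 0.05 under all alternatives that gave one (DESeq2 gave none for *Igf2*). Over all rows, the number with an adjusted *p* under 0.05 was 27 with DESeq2 (19526 rows), 1 with at least 1 count in any library required, and 0 to 1 with a library left out (1 without AdKO replicate 3). The number with an unadjusted *p* under 0.05, 566, lay between 329 (without AdWT replicate 2) and 1208 (without AdWT replicate 1). Library size only moved the median of all rows to 0.054, and this alternative left the signs of the 4 members as they were.

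The replicate block gave 418 rows with an unadjusted *p* under 0.05, 0 adjusted, and a log2 fold change of -0.00089 for *Meg3*. With it, the unadjusted edgeR *p* of *Nap1l4* was 0.077, and those of *Cdk4*, *Ccnd2*, *Sfrp5*, *Lep* and *Zfp423* stayed under 0.05. No adjusted call of a member or of these genes changed. Over all 15 alternatives the unadjusted *p* was under 0.05 in 7 for *Nap1l4*, 10 for *Cdk4*, 9 for *Ccnd2*, 12 for *Sfrp5*, 13 for *Lep* and 11 for *Zfp423*, and each was over 0.05 without at least 1 of the libraries. The replicate numbers did not pair the libraries. With rows of a symbol summed, *Meg3* was at -0.083.

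With each library left out, log2 fold changes lay between -0.26 and 0.28 for *Meg3*, -0.44 and 0.039 for its other row, -0.056 and 0.21 for *Plagl1*, -0.23 and 0.16 for *Grb10*, -0.013 and 0.039 for *Cd81*, -0.042 and 0.11 for *Slc22a3*, -0.019 and 0.15 for *Igf2r*, -0.045 and 0.11 for *Ndn*, -0.22 and 0.11 for *Igfbp4*, -0.20 and 0.030 for *Igfbp5*, -0.098 and 0.28 for *Notch3*, -0.076 and 0.34 for *Col6a1*, and -0.065 and 0.31 for *Col6a2*. List medians lay between -0.013 and 0.18 (members), -0.10 and 0.016 (other imprinted), -0.067 and 0.055 (neighbours), -0.19 and 0.046 (IGF and insulin axis), -0.0083 and 0.28 (partners), -0.11 and 0.13 (fat expansion), -0.24 and -0.074 (white adipocyte), -0.062 and 0.17 (progenitor), 0.10 and 0.78 (macrophage), -4.62 and -2.21 (skeletal muscle), -1.01 and 3.26 (epithelial), and -0.62 and 0.43 (lymph node). Over all alternatives the endothelial median lay between -0.17 and 0.17. The progenitor median was 0.082 with DESeq2 and 0.090 with at least 1 count in any library, and the muscle median -2.12 with at least 10 counts in every library. The cause was not tested, and the epithelial value rests on 1 gene both with all 6 libraries and without AdKO replicate 3. Of 328 pairs of a gene and an alternative, 303 kept their direction, and every pair with an adjusted *p* kept its side of the threshold.
With 3 libraries a group, only large differences could be detected for genes with few counts, and a permutation *p* cannot go below 0.1.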
